A study of Mus musculus with 12 samples.

Results

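The SLAM family receptors Slamf1, Slamf7, Slamf8, Slamf9, Cd48, Cd84 and Ly9 and the activating receptor Tarm1 were followed in RNA sequencing of mouse cardiac fibroblasts taken 3 days after myocardial infarction. These 8 genes were taken by symbol from the 18771 genes of the deposited table, and all 8 had a value in every library. They were chosen by their measured levels in Pfas CKO and control, so the difference between the groups is described for them without a test. The 6 Pfas CKO libraries came from mice of genotype PDGFRa CreER/+;Pfas fl/fl, given tamoxifen 7 days and 3 days ahead of the ligation and again 1 day later. The 6 control libraries came from PDGFRa CreER/+;Pfas fl/+ mice, so that all animals carried the inducible Cre at the fibroblast gene Pdgfra and at least 1 floxed allele of Pfas, a gene of de novo purine synthesis. All mice had the left anterior descending coronary artery permanently tied, and cells were isolated from the left ventricle. The sources used here state neither whether control mice received tamoxifen nor whether each library had its own mouse.

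SLAM receptors are immunoglobulin-type proteins of leukocyte membranes. Most bind a copy of themselves on a neighbouring cell, and tyrosine motifs in their tails recruit small SH2 adaptors (SAP, EAT-2) or inhibitory phosphatases, so that the same receptor can activate or restrain a cell. TARM1 belongs to a different group, the leukocyte receptor complex, and signals on myeloid cells through the ITAM-bearing FcR gamma chain. In infarcted hearts such receptors are carried mainly by the macrophages, neutrophils and other leukocytes that enter the injured wall.

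In Pfas CKO libraries, Slamf1 and Tarm1 transcripts stood far above the control level and Slamf7 about 3.11-fold above it, whereas Slamf8, Cd84 and Cd48 stood below it and Ly9 and Slamf9 overlapped. In CPM (read counts scaled to library size by the TMM method), the groups did not overlap for 6 of the 8 genes, 3 higher and 3 lower in Pfas CKO. Of the 13600 genes tested, 47.1% did not overlap between the groups (23.2% higher and 23.9% lower in Pfas CKO), and the members had been picked with this contrast known, so nothing is read from their count.

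The 7 SLAM genes lie on chromosome 1 of GRCm38 and Tarm1 on chromosome 7. The 1031 kb from the start of the related gene Cd244a to the end of Slamf8 hold all 7. Promoter entries were found in RefSeq (GRCm38.p6) for 7 of the 8 members, Ly9 being the exception. The 250 bases before the RefSeq start are shown for the 3 genes with the highest ratio of Pfas CKO to control and the 2 with the lowest, since these carry the contrast within the family. Capitals mark matches, on either strand, to motifs of NF-kB (GGGA and CC with 4 bases of any kind between them), AP-1 (TGANTCA), ETS factors such as PU.1 (AGGAAGT), interferon-responsive elements (GAAA and GAAA with 2 bases of any kind between them) and C/EBP (TTGCNNAA).
Slamf1 (chr1:171766882-171767131, plus strand): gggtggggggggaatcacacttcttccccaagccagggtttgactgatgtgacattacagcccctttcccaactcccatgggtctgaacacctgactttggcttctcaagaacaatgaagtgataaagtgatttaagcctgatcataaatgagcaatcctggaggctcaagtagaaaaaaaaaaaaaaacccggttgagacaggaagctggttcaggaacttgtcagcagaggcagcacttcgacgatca
Tarm1 (chr7:3502625-3502874, minus strand): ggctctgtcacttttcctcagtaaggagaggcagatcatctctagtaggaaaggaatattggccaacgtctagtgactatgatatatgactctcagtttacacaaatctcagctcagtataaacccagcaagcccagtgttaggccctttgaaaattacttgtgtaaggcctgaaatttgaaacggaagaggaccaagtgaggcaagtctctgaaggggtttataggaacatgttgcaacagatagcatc
Slamf7 (chr1:171649000-171649249, minus strand): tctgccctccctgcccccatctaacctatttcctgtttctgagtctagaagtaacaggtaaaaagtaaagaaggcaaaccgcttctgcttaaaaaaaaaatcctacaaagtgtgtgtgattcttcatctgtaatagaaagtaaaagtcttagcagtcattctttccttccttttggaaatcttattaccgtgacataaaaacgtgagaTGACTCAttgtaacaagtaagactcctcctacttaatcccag
Slamf8 (chr1:172590569-172590818, minus strand): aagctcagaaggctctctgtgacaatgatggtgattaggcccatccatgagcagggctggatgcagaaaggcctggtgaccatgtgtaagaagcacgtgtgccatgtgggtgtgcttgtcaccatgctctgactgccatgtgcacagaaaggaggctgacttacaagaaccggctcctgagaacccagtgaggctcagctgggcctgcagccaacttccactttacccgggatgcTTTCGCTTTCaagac
Cd84 (chr1:171839447-171839696, plus strand): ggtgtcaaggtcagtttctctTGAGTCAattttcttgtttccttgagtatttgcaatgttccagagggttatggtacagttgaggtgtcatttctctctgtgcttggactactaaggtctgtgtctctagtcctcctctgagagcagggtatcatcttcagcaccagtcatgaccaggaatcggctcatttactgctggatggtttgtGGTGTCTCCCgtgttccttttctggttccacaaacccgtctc

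In these windows Slamf7 held a single AP-1 match (first base at -42 from the start), Slamf8 a single interferon-responsive match (at -15), and Cd84 an AP-1 match (at -229) and an NF-kB match (at -42), which do not overlap. Slamf1 and Tarm1, the genes with the highest ratios, held no match to any of the 5 motifs. Among 32851 RefSeq promoters of the same length, 17.6% held the NF-kB motif, 6.75% the AP-1 motif, 7.69% the ETS motif, 2.98% the interferon-responsive motif and 9.56% the C/EBP motif. A match is not a binding site, and the absence of one says only that these letters are not in the window. For Slamf7 the RefSeq start lies inside the gene's GENCODE M21 span, which begins further upstream.

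The libraries held between 20320133 and 20950074 estimated counts each. A floor of 3 counts corresponded to 0.157 to 0.161 CPM in Pfas CKO and 0.131 to 0.134 CPM in control. Libraries fell into near-identical sets (control 1 to 3, control 4 to 6, and Pfas CKO 1, 3, 5 and 6), with Pfas CKO 2 and Pfas CKO 4 apart from the others and from each other. Averaged over genes, the chi-square statistic of a pair of libraries lay between 1.68 and 5.21 inside sets, between 17.5 and 39.9 across sets of 1 genotype, and between 169 and 253 across genotypes, where 1 is sampling noise. No set held both genotypes, so a difference in preparation and the genotype cannot be told apart, and p-values measure the spread between libraries, which may be technical. Pfas itself (chromosome 11, 68985697 to 69008460, minus strand) ranged over 8.01, 9.43 and 17.4 CPM in Pfas CKO (lowest, median, highest) and over 22.4, 23.1 and 24.9 CPM in control. By edgeR's quasi-likelihood test its log2 fold change was -1.05 ± 0.156 (SE; adjusted p = 2.26e-05). Pfas CKO 2 and 4 kept the highest Pfas levels of their group, at 17.4 and 14.5 CPM.

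Defining fibroblast markers were abundant, with the 8 markers summing to 13956 to 16838 CPM in Pfas CKO and 17630 to 20641 CPM in control. Of these 4 rose (Dcn, Lum, Postn and Tcf21) and 4 fell (Col1a1, Col1a2, Col3a1 and Pdgfra), so the lower sum does not hold for each marker. Leukocyte transcripts were abundant as well. The 12 macrophage markers summed to 5015 to 7053 CPM in Pfas CKO and 5592 to 6113 CPM in control (5 higher, 3 lower), and the 5 pan-leukocyte genes to 1451 to 1532 and 1506 to 1550 CPM (1 higher, 2 lower). Monocyte markers summed to 3700 to 4426 CPM in Pfas CKO and 3192 to 3536 CPM in control (3 higher, 2 lower of 6). Fn1 alone made up most of that sum (Pfas CKO mean 3450 CPM, control mean 2922 CPM), and Chil3 and Itgal were the other higher genes. Ccr2 fell from a control mean of 21.7 CPM to a Pfas CKO mean of 6.40 CPM, and Ly6c2 from 67.8 to 17.5 CPM. The higher monocyte sum thus does not hold for each marker. Neutrophil markers summed to 124 to 208 and 226 to 251 CPM (2 higher, 2 lower of 5 tested). Mmp8 fell from a control mean of 154 CPM to a Pfas CKO mean of 25.6 CPM, and Csf3r from 71.9 to 65.2 CPM. S100a8 rose from a control mean of 4.19 CPM to a Pfas CKO mean of 19.0 CPM, and S100a9 from 2.85 to 34.0 CPM. The lower neutrophil sum thus does not hold for each marker. Dendritic cell markers summed to 134 to 175 CPM in Pfas CKO and 91.0 to 97.2 CPM in control, and 5 of the 7 tested rose and 2 fell. Ccr7 had the highest Pfas CKO mean of the list (57.2 CPM, control mean 12.9 CPM), and Xcr1, Zbtb46, Flt3 and Clec9a were the other higher genes. Itgax fell from a control mean of 61.1 CPM to a Pfas CKO mean of 38.2 CPM, and Siglech from 3.45 to 0.619 CPM. Cd209a, under the count filter, averaged 0.0352 CPM in Pfas CKO and 0.808 CPM in control. Lymphocyte markers were scarce. The 8 T cell markers summed to 4.32 to 6.25 CPM in Pfas CKO and 4.70 to 7.14 CPM in control, the 6 B cell markers to 5.33 to 8.06 and 4.82 to 5.78 CPM, and the 6 NK cell markers to 0.374 to 0.953 and 0.490 to 0.964 CPM. Red cell and muscle transcripts also differed. The 5 erythroid markers, all of which rose, summed to 129 to 211 CPM in Pfas CKO and 8.60 to 9.51 CPM in control, and the 5 cardiomyocyte markers, of which 4 were tested and 4 rose, to 29.2 to 35.5 and 10.6 to 11.8 CPM. The part of these differences in the receptor levels was not tested. In bulk RNA, fewer cells of a type and less RNA per cell cannot be told apart.

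Among the self-binding receptors, Slamf1 had the largest fold difference. SLAMF1 (CD150) is found on macrophages, dendritic cells and lymphocytes, and in mouse macrophages it also binds Gram-negative bacteria. The gene (ID 27218; chromosome 1, 171767127 to 171801184, plus strand) ranged over 20.5, 21.5 and 37.4 CPM in Pfas CKO (lowest, median, highest) and over 0.307, 0.334 and 0.401 CPM in control. The lowest Pfas CKO library thus lay above the highest control library, and Pfas CKO 4 and 2 were the highest, at 37.4 and 30.8 CPM. Its mean CPM was 74.8-fold higher in Pfas CKO, and the log2 fold change fitted by edgeR was 6.20, the fifth highest among the 13600 genes when ranked from the most positive. Few reads set the control level: 2879 counts were summed over the Pfas CKO libraries and 46 over the control libraries (exact Poisson 95% interval 33.7 to 61.4, counting error only). Slamf1 passed the filter on low counts only through Pfas CKO.

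Slamf7 had the highest mean CPM of the 8 genes in Pfas CKO. SLAMF7 (CRACC) is a self-binding receptor of NK cells and macrophages, and in mouse macrophages it works with the integrin Mac-1 in the uptake of target cells. The gene (ID 75345; chromosome 1, 171632403 to 171653035, minus strand) ranged over 284, 405 and 414 CPM in Pfas CKO and over 115, 119 and 129 CPM in control. All Pfas CKO libraries lay above all control libraries, but Pfas CKO 2 and 4, at 284 and 333 CPM, were the lowest of their group, the reverse of their order for Slamf1. The log2 fold change was 1.64, and it was 1.75 without these libraries. Slamf7 overlaps, in exons, with the antisense gene Gm37787, whose reads cannot be told apart from its own without a strand setting.

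Cd84 and Ly9, which also bind themselves and carry SAP-binding motifs in their tails, did not follow Slamf7. Cd84 (ID 12523; chromosome 1, 171839697 to 171890718, plus strand) ranged over 156, 185 and 193 CPM in Pfas CKO and over 249, 288 and 321 CPM in control. Every Pfas CKO library lay below every control library (log2 fold change -0.68). Ly9 (ID 17085; chromosome 1, 171588624 to 171607410, minus strand) ranged over 160, 184 and 192 CPM in Pfas CKO and over 167, 172 and 182 CPM in control. The groups overlapped and the log2 fold change was 0.05. In TPM (transcript abundance corrected for gene length and scaled to a fixed library total), Ly9 ranged over 126 to 155 in Pfas CKO and 168 to 179 in control without overlap, so its direction depends on the scaling. The Ly9 span lies inside that of Cd244a on the opposite strand, with 0 shared exonic bases, and no strand setting of the counts is stated.

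Cd48 encodes a GPI-anchored protein with no tail, the ligand of CD244 and, in mice, of CD2. The gene (ID 12506; chromosome 1, 171682009 to 171705258, plus strand) ranged over 61.1, 69.4 and 70.6 CPM in Pfas CKO and over 72.2, 89.6 and 107 CPM in control. The groups did not overlap, but the gap to control 1 to 3 was narrow. The log2 fold change was -0.40 against all control libraries, -0.61 against control 4 to 6 alone and -0.15 against control 1 to 3 alone.

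Slamf8 and Slamf9 encode members with short tails that lack the usual signalling motifs, and SLAMF8 restrains the phagocyte NADPH oxidase in mouse macrophages. Slamf8 (ID 74748; chromosome 1, 172581758 to 172590568, minus strand) ranged over 17.4, 18.8 and 22.8 CPM in Pfas CKO and over 34.6, 35.05 and 36.5 CPM in control. Its groups did not overlap, and the ratio of mean CPM, Pfas CKO to control, was 0.545. Slamf9 (ID 98365; chromosome 1, 172475358 to 172478575, plus strand) ranged over 3.06, 4.55 and 5.61 CPM in Pfas CKO and over 2.93, 3.36 and 4.91 CPM in control, and the groups overlapped.

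Tarm1 (ID 245126; chromosome 7, 3486500 to 3502624, minus strand) ranged over 113, 118 and 145 CPM in Pfas CKO and over 1.84, 2.45 and 2.85 CPM in control. Its mean CPM was 51.2-fold higher in Pfas CKO, and the log2 fold change fitted by edgeR was 5.68, the sixth highest among the 13600 genes when ranked from the most positive. Genes blank in a control library, which may be zeros there, are in neither ranking nor count. Of all genes tested, 44 (0.324%) had a mean at least 10-fold higher in Pfas CKO, Slamf1 and Tarm1 among them. Both were chosen with this contrast known, so nothing is read from their ranks or from their place in this class. As with Slamf1, Pfas CKO 4 and 2 were the highest libraries, at 145 and 142 CPM, and the other 4 lay between 113 and 119 CPM.

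**Figure D1:**
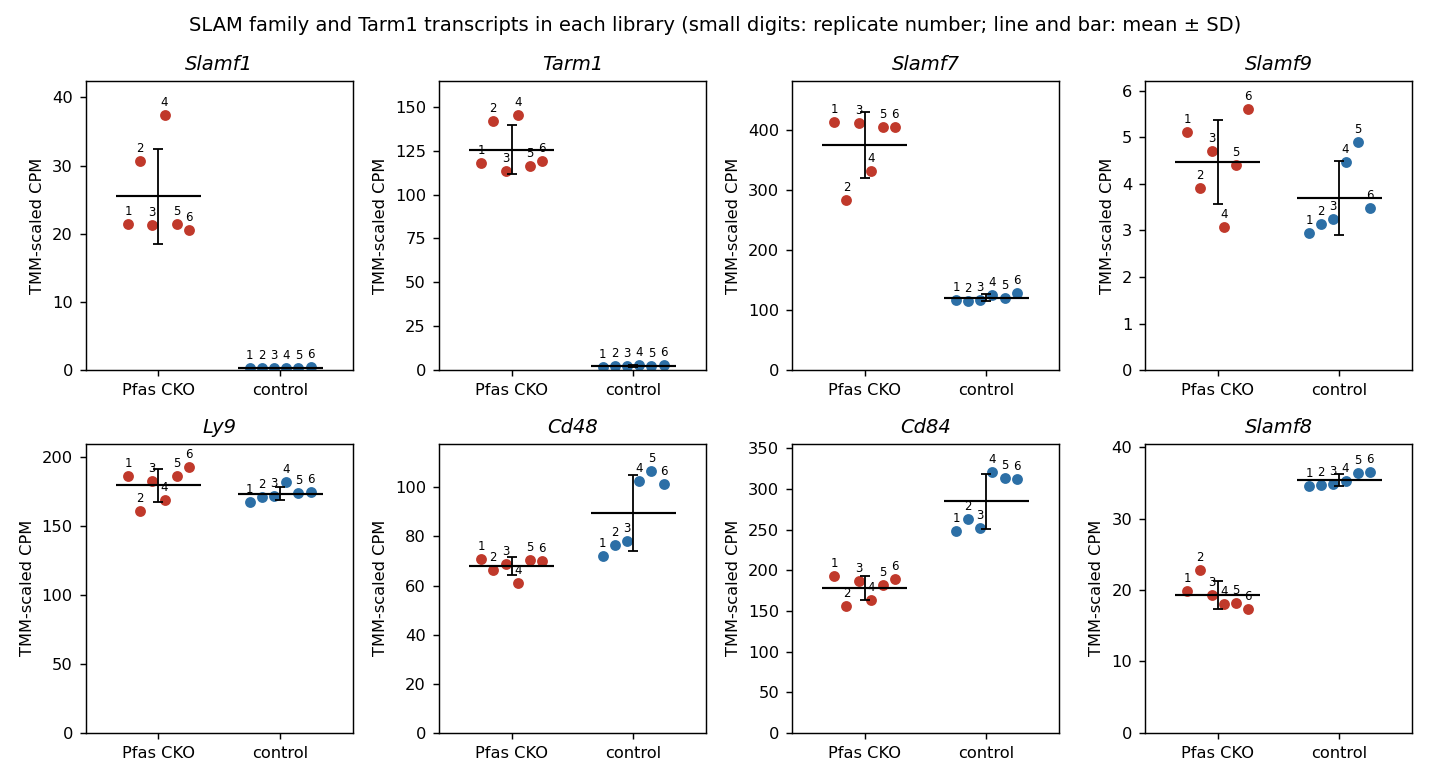
TMM-scaled CPM of the 8 receptor genes in each Pfas CKO library (red, left) and control library (blue, right), with replicate numbers, means and SD bars (n = 6 each) on axes that start at 0. Slamf1 and Tarm1 are near 0 in control, Slamf7 lies at 284 to 414 CPM in Pfas CKO with 115 to 129 CPM in control, and Slamf8, Cd84 and Cd48 lie lower in every Pfas CKO library.

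The order of the receptors by TPM differed between the groups. In Pfas CKO it ran Slamf7 (217 ± 33.9 TPM), Tarm1 (182 ± 20.3), Cd84 (166 ± 17.7), Ly9 (145 ± 11.6), Cd48 (116 ± 7.45), Slamf1 (23.1 ± 6.29), Slamf8 (21.7 ± 2.25) and Slamf9 (7.93 ± 1.65; mean ± SD, n = 6). Neighbours from Slamf7 to Ly9 overlapped in their ranges, as did Slamf1 and Slamf8. In control it ran Cd84 (282 ± 37.2 TPM), Cd48 (185 ± 27.3), Ly9 (172 ± 3.42), Slamf7 (82.5 ± 3.21), Slamf8 (51.6 ± 1.17), Slamf9 (7.96 ± 1.55), Tarm1 (5.47 ± 0.655) and Slamf1 (0.393 ± 0.0418), and there the neighbours Cd48 and Ly9 were the only ones whose ranges overlapped. The summed level of the 8 genes was 879 ± 46.9 TPM in Pfas CKO and 787 ± 66.9 TPM in control. Tarm1 made up 20.8% of that sum in Pfas CKO and 0.695% in control, and Cd84 made up 18.9% and 35.7%.

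**Figure D2:**
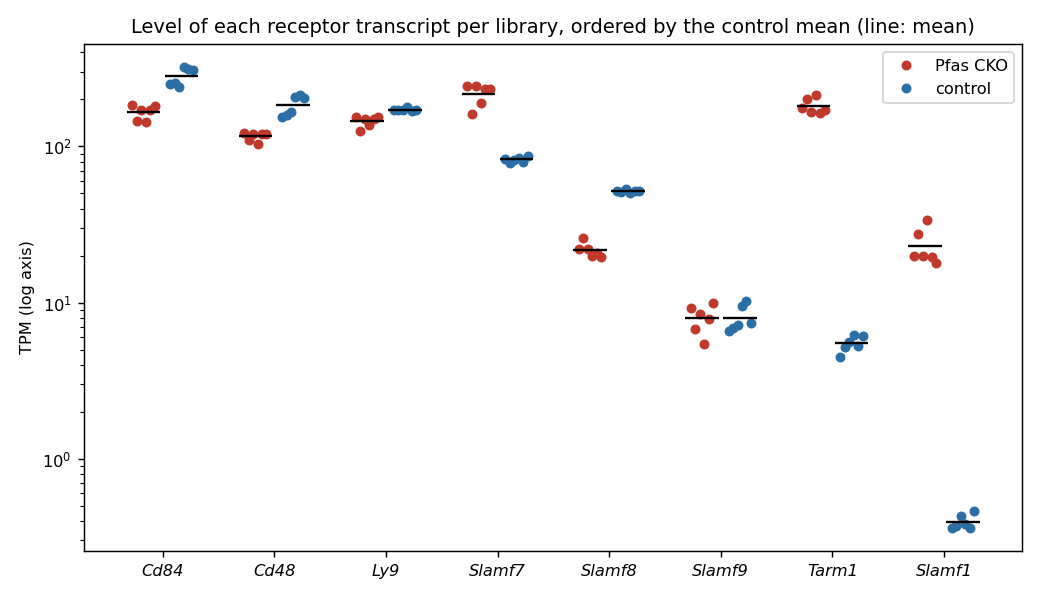
TPM on a log axis for each library, Pfas CKO in red to the left of control in blue, with genes ordered by the control mean and lines at group means. Tarm1 and Slamf1, the lowest genes in control at 5.47 and 0.393 TPM, reached 182 and 23.1 TPM in Pfas CKO.

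Set against Ptprc (CD45, a protein of all nucleated leukocytes), Slamf1, Tarm1 and Slamf7 were higher in Pfas CKO and the other 5 receptors lower on average, with overlapping groups for Slamf9. Ptprc itself averaged 275 ± 28.9 CPM in Pfas CKO and 169 ± 12.6 CPM in control (n = 6 each, edgeR log2 fold change 0.71, adjusted p = 3.47e-07). No other gene of the pan-leukocyte list rose with it. The tetraspanin gene Cd53 averaged 455 ± 43.3 CPM in Pfas CKO and 488 ± 66.0 CPM in control (edgeR adjusted p = 0.315), and the actin-binding gene Coro1a 39.9 ± 1.21 and 45.5 ± 2.01 CPM (edgeR adjusted p = 0.00151). Laptm5 averaged 417 ± 31.6 CPM in Pfas CKO and 526 ± 69.2 CPM in control (edgeR adjusted p = 0.00193), and Spi1 297 ± 15.6 and 303 ± 14.7 CPM (edgeR adjusted p = 0.626). Because Ptprc was higher in Pfas CKO, division by it lowers every ratio there. Per 100 reads of Ptprc there were 9.20 ± 1.84 reads of Slamf1 in Pfas CKO and 0.203 ± 0.0275 in control, and 45.8 ± 4.64 and 1.45 ± 0.169 reads of Tarm1. For Slamf7 there were 138 ± 26.7 reads in Pfas CKO and 71.8 ± 3.18 in control. On the Ptprc scale Ly9 (65.9 ± 9.07 and 103 ± 5.55) and Slamf9 (1.66 ± 0.434 and 2.18 ± 0.355) were lower in Pfas CKO, next to Slamf8 (7.07 ± 1.03 and 21.1 ± 1.24), Cd84 (65.5 ± 9.58 and 169 ± 9.04) and Cd48 (24.98 ± 3.43 and 52.8 ± 5.88). Of the 7 dendritic cell markers tested in the same libraries, 5 rose and 2 fell (Itgax and Siglech). The part of these markers in the receptor levels was not tested.

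The receptors were compared between the control sets, which share a genotype, a contrast that had no part in choosing them. Libraries inside each set were near-identical, so the p-values weigh the difference between sets against a spread that may be technical. They do not measure the spread of the receptors within the genotype. Control 4 to 6 differed from control 1 to 3 in 45.5% of 13727 genes (23.5% higher, 22.0% lower), and 3 of the 7 receptors tested passed. Cd48 averaged 104 ± 2.86 CPM in control 4 to 6 and 75.6 ± 3.04 CPM in control 1 to 3 (n = 3 each; log2 fold change 0.44 ± 0.039 SE, edgeR adjusted p = 5.42e-09). Cd84 averaged 316 ± 4.72 and 255 ± 7.38 CPM (0.29 ± 0.0317, edgeR adjusted p = 8.66e-08). Both were lower in Pfas CKO than in either control set. Slamf9 averaged 4.28 ± 0.732 and 3.11 ± 0.161 CPM (0.45 ± 0.147, edgeR adjusted p = 0.0164), beside 0.27 between the genotypes, and it did not pass in DESeq2 (adjusted p = 0.0865) or in edgeR without control 1 (adjusted p = 0.0583), control 4 (0.0614) or control 5 (0.116). Slamf7 (edgeR adjusted p = 0.0580, and 0.0420 without control 5), Slamf8 (0.529), Ly9 (0.348) and Tarm1 (0.223) did not pass, and Slamf1 was under the count filter in control.

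Profiles were compared over the 12 libraries by the root mean square difference of log2 CPM centred on each gene's mean, among 11734 genes averaging at least 2 CPM. A prior count of 2 was added before taking logs. The distance is set largely by the difference between Pfas CKO and control, on which the members were chosen. It mainly shows which genes had a difference of like size on this scale and supports nothing further. Slamf1 had only 7 to 9 estimated counts per control library, so the prior count shrinks its difference. The distances of Slamf1 therefore do not order genes by likeness of fold difference. Tarm1 and Slamf1 differed from each other by 0.21 on this scale. The nearest other genes to Slamf1 were Tnf (0.40), Cxcl2 (0.42) and Gm39701 (0.51), and the nearest to Tarm1 were Cxcl2 (0.31), Tnf (0.41) and Gm39701 (0.42). Tnf and Cxcl2 encode an inflammatory cytokine and a neutrophil-attracting chemokine. Slamf7 lay closest to Tlr2, a receptor for bacterial lipoproteins (0.046), then to Gem (0.074) and Vcam1, an endothelial and stromal adhesion molecule (0.076). Cd84 lay closest to Lonrf3 (0.061), Snx5 (0.062) and Evi2a (0.070), and Cd48 to Tsc22d3 (0.068), Ctso (0.077) and the chemokine gene Ccl7 (0.082). Slamf8 lay closest to the lymphoid transcription factor gene Ikzf1 (0.074), Gatd1 (0.076) and Mrpl10 (0.078), Ly9 to Arpc2 (0.036), Sar1a (0.036) and Scpep1 (0.038), and Slamf9 to Bphl (0.12), Akr1b3 (0.15) and Ube2c (0.15).

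Neighbouring receptor genes differed in direction. From Cd244a to Slamf8 the interval on chromosome 1 (171559193 to 172590568) held 28 protein-coding genes, 7 of them members. Slamf1, at 6.20 on the log2 scale, lay between Cd48 (-0.40) and Cd84 (-0.68). Of the 15 other genes tested, 6 were higher, 2 lower and 7 did not pass by the edgeR test, where 68.6% of all 13600 genes passed (33.4% higher, 35.2% lower). The other genes ranged in log2 fold change from -2.12 (Kcnj10, a potassium channel) to 0.94 (Tagln2, an actin-binding protein), a range that holds neither Slamf1 nor Slamf7. The interval was chosen, and these 2 genes singled out, after the values were seen.

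**Figure D3:**
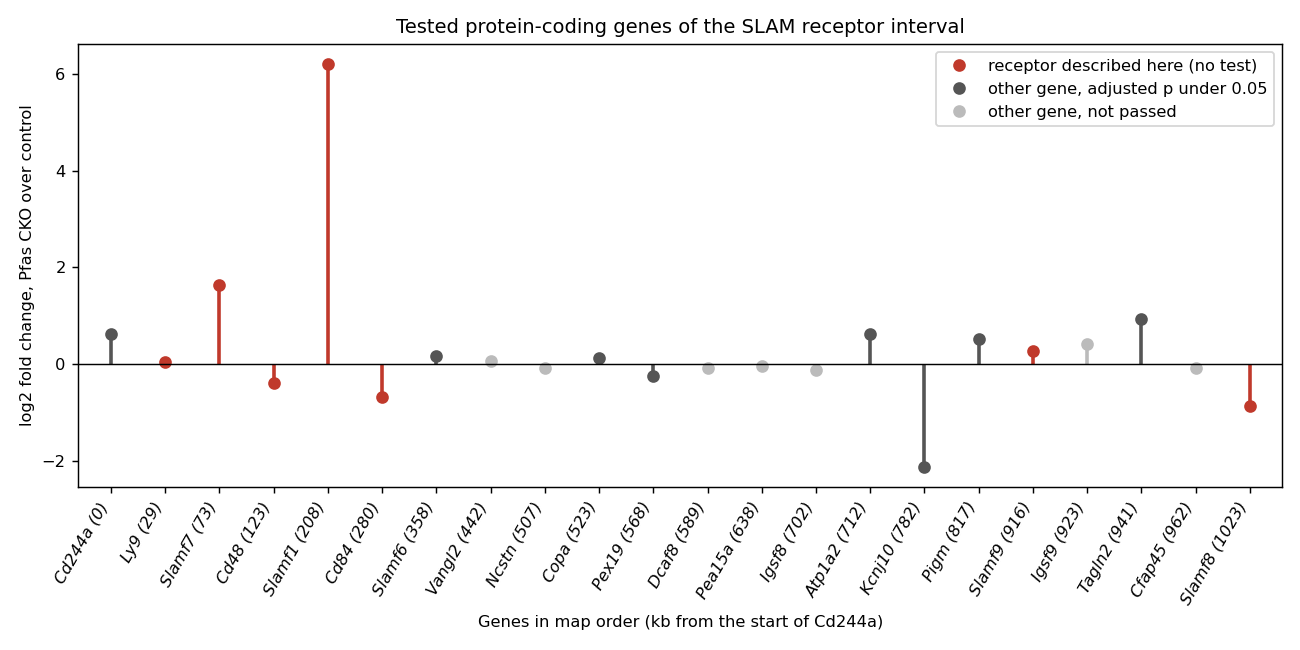
Log2 fold change (Pfas CKO over control, edgeR) of each tested protein-coding gene between Cd244a and Slamf8 in map order, with the distance in kb from the start of Cd244a in brackets. Red marks the receptors described here, dark grey other genes past an adjusted p of 0.05 and light grey those not passed. Slamf1 stands at 6.20 between Cd48 and Cd84, which lie below 0.

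Of the other receptors of the group, 2 were tested and both passed, where 68.6% of all genes passed. Cd244a (2B4), the CD48 receptor, rose to 5.80 ± 0.215 CPM in Pfas CKO, against 3.76 ± 0.598 CPM in control (n = 6 each; edgeR log2 fold change 0.62, adjusted p = 6.71e-05). Slamf6 (Ly108) averaged 26.9 ± 2.65 CPM in Pfas CKO and 23.9 ± 1.69 CPM in control, with overlapping groups (log2 fold change 0.17, edgeR adjusted p = 0.0374), and its call was lost with near-identical libraries summed (adjusted p = 0.191). Its log2 fold change turned to -0.06 with library totals alone. Cd2 was under the count filter, its means being 0.230 ± 0.173 CPM for Pfas CKO libraries and 0.215 ± 0.0866 CPM for control libraries.

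Genes that carry SLAM signals differed in both directions. Of 16 genes, 13 were tested, with 3 higher, 7 lower and 3 not past the threshold (76.9% called, beside 68.6% of all genes). Their median was -0.24 on the log2 scale, beside -0.02 for all genes. Inpp5d, the lipid phosphatase SHIP1, fell to 39.1 ± 5.61 CPM in Pfas CKO, against 132 ± 6.39 CPM in control (n = 6 each; edgeR log2 fold change -1.76, adjusted p = 8.65e-11). Ptpn6, the tyrosine phosphatase SHP-1, fell to 53.9 ± 3.91 CPM, against 84.6 ± 3.01 CPM in control (edgeR adjusted p = 3.16e-08). The adaptor Sh3bp2 averaged 94.9 ± 5.60 CPM in Pfas CKO and 180 ± 14.3 CPM in control, and the exchange factor Vav1 226 ± 7.15 and 304 ± 20.5 CPM (edgeR adjusted p = 2.66e-09 and 2.06e-06). The SH2 adaptors were scarce. Sh2d1a (SAP) averaged 0.0353 ± 0.0274 CPM in Pfas CKO, against 0.0223 ± 0.0244 CPM in control, and was under the count filter. Sh2d1b1 (EAT-2), with overlapping groups, fell to 0.265 ± 0.190 CPM, against 0.644 ± 0.140 CPM in control (edgeR adjusted p = 0.00481). Itgam, the alpha chain of Mac-1, averaged 417 ± 33.9 CPM in Pfas CKO and 366 ± 7.61 CPM in control (log2 fold change 0.19, edgeR adjusted p = 0.00496), but with near-identical libraries summed its adjusted p was 0.121 and with library totals alone its log2 fold change was -0.04.

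Among the partners of SLAMF1 and SLAMF8 on phagosomes, subunits of the NADPH oxidase rose and fell. Of 10 genes, 3 rose, 5 fell and 2 did not pass (80% called, beside 68.6% of all genes). Cybb, the catalytic subunit, rose to 1122 ± 93.1 CPM in Pfas CKO, against 325 ± 16.5 CPM in control (n = 6 each; edgeR log2 fold change 1.79, adjusted p = 1.13e-12), and the cytosolic subunit gene Ncf1 rose to 162 ± 4.64 CPM, against 75.3 ± 3.91 CPM (edgeR adjusted p = 1.37e-11). Pik3c3 (Vps34), the lipid kinase that SLAMF1 recruits in mouse macrophages, fell to 30.3 ± 3.42 CPM in Pfas CKO, against 44.2 ± 1.35 CPM in control (edgeR adjusted p = 2.86e-06). Its regulatory subunit Pik3r4 averaged 20.7 ± 2.07 and 26.7 ± 1.40 CPM (edgeR adjusted p = 0.000172; 0.0852 with near-identical libraries summed).

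Of 14 genes of the TARM1 route and of the leukocyte receptor complex, 12 were tested. Among them 7 were higher, 4 lower and 1 not past the threshold (91.7% called, beside 68.6% of all genes). Their median was 0.30 on the log2 scale. Fcer1g, the FcR gamma chain that TARM1 needs, averaged 262 ± 13.5 CPM in Pfas CKO and 229 ± 12.1 CPM in control (n = 6 each; edgeR log2 fold change 0.20, adjusted p = 0.00251). That call was lost with near-identical libraries summed (adjusted p = 0.159), and with library totals alone the log2 fold change was -0.03. Downstream of Syk-coupled receptors, Malt1 rose to 811 ± 138 CPM in Pfas CKO, against 189 ± 10.2 CPM in control, and Bcl10 to 139 ± 12.6 CPM, against 71.8 ± 6.17 CPM (edgeR adjusted p = 2.46e-11 and 1.11e-08). Card9, the adaptor between Syk and these proteins, fell to 7.65 ± 0.589 CPM in Pfas CKO, against 16.2 ± 2.53 CPM in control (edgeR adjusted p = 1.66e-07), and the ITAM adaptor gene Tyrobp fell to 157 ± 19.98 CPM, against 229 ± 24.2 CPM in control (edgeR adjusted p = 4.45e-05). Card9 and Tyrobp were named after their values were seen. The receptor gene Lilra6 fell to 4.04 ± 0.787 CPM, against 26.4 ± 3.99 CPM in control, and Lilr4b rose to 779 ± 51.6 CPM, against 440 ± 44.6 CPM in control (edgeR adjusted p = 6.30e-11 and 4.70e-08). Both have near-identical neighbours with which reads could have been exchanged, so their levels are uncertain. Over the 4 lists together 31 of the 37 tested genes passed, or 83.8% beside 68.6% of all genes. With near-identical libraries summed 20 passed, where 2783 of all 15231 genes tested were higher and 2877 lower. The lists were drawn up with earlier results of these data known.

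**Figure D4:**
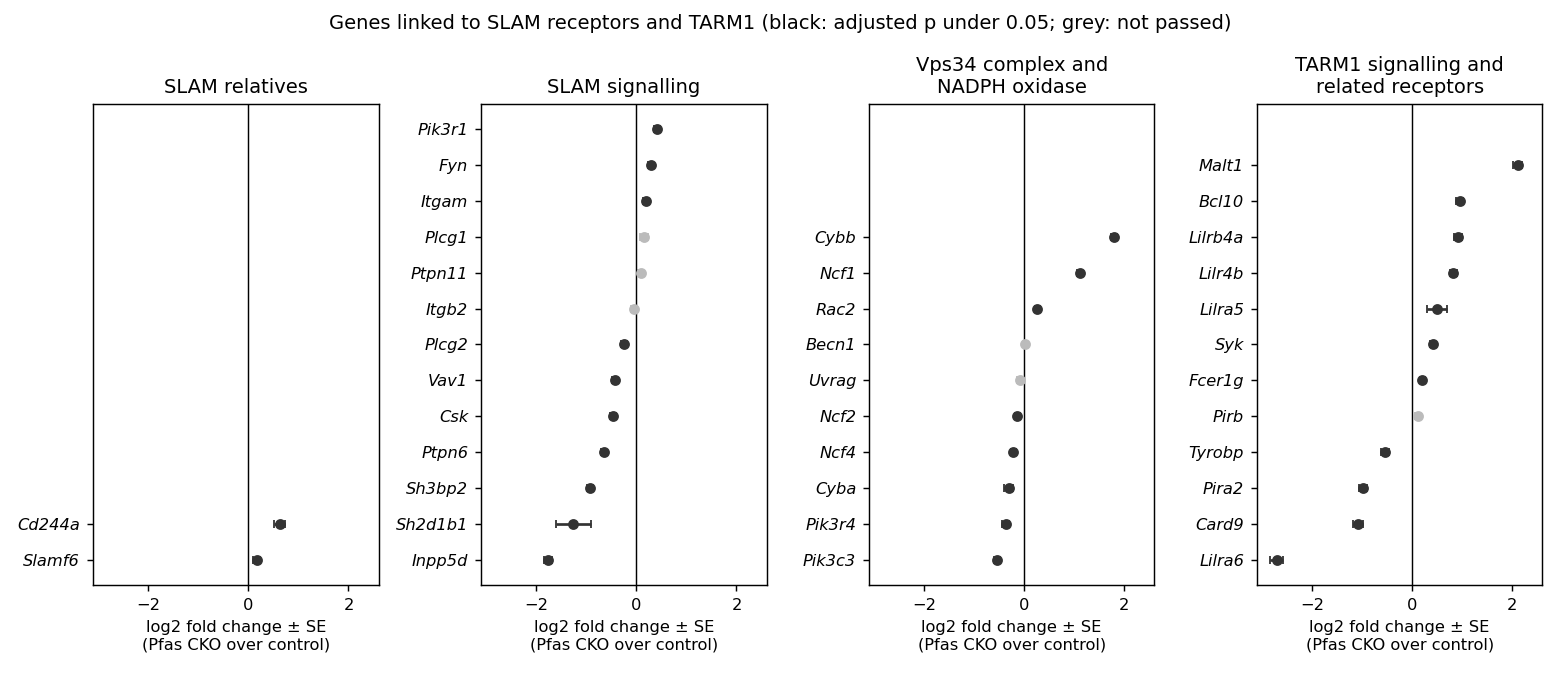
Log2 fold change with its standard error (Pfas CKO over control, edgeR) for the tested genes of the 4 related lists, black where the adjusted p was under 0.05 and grey where it was not. Malt1 (2.11) and Cybb (1.79) lie furthest to the right, Lilra6 (-2.71) and Inpp5d (-1.76) furthest to the left.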

How the data were processed

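The deposited table holds estimated counts, TPM and FPKM per gene and library, per the file headers. The authors' estimated counts were not normalized, and their TPM and FPKM values were scaled per library by the authors. FPKM stayed out of the analysis. For 9 libraries the submitters' processing notes list Bowtie2, RSEM and DESeq2 with no role or version, and for control 1 to 3 they list no tool. The build is GRCm38. Groups came from the sample titles.

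Genes blank in some control libraries (1067, with at most 58.23 counts in any library) were left out. A blank may stand for 0, so genes absent in control could be missing from ranks and counts. Estimated counts were rounded. The test was that of edgeR 4.0.16, run under R 4.3.3 (TMM, filterByExpr, quasi-likelihood test, group as the only term), adjusted by Benjamini-Hochberg over 13600 genes, with a threshold of 0.05. The test was also run on simulated counts, drawn independently for each library with a common dispersion. Such counts lack the near-identical sets, so that run cannot show that the p-values hold for these libraries. Of the members, 8 passed the filter and 7 would from control counts alone. CPM values are TMM-scaled. Gene positions are from GENCODE M21 and promoters from RefSeq.

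Members, gene lists and alternatives were chosen with earlier results of these data known. The rule for names took all members, up to 4 called genes with the smallest p per related list, a few related genes fixed by name, and the 3 nearest profiles of each member. Symbols fixed in the 4 related lists numbered 44, of which 42 have a row in the table, and Cd244 is the older symbol of Cd244a. Alternatives were RLE scaling, library totals, other filters, DESeq2 1.42.0, limma-trend (limma 3.58.1) on log2(TPM + 1) and log2(TPM + 0.1), a replicate block, near-identical libraries (mean chi-square under 10) summed, and libraries left out.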

Additional observations from a re-analysis of the deposited data

Results flagged for a closer look

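Of 20 groups of 6 libraries examined (the 8 receptors, Pfas and Ptprc in each genotype), 1 held a library far from the rest of its group. Ptprc stood at 329 CPM in Pfas CKO 4, and the next highest Pfas CKO library was at 280 CPM. Chance alone gives such a gap in about 1 in 20 groups. Slamf1 and Tarm1 were highest in the same library.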

How the results depend on the processing

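Every setting kept the receptors' direction except for Ly9 and Slamf9. Scaling by library totals alone shifted the median of all genes to -0.26 from -0.02 (log2), with 2775 genes higher and 7202 lower, and with log2 fold changes of 1.40 for Slamf7, -1.11 for Slamf8, -0.63 for Cd48, -0.91 for Cd84, -0.18 for Ly9 and 5.44 for Tarm1. On log2(TPM + 1) and log2(TPM + 0.1), 2279 and 2271 genes were higher and 7280 and 7263 lower, and the values were 4.08 and 5.52 for Slamf1, 1.37 and 1.38 for Slamf7, -1.22 and -1.25 for Slamf8, -0.66 and -0.66 for Cd48, -0.25 and -0.25 for Ly9, -0.01 and -0.01 for Slamf9, 4.82 and 5.03 for Tarm1. Of the related genes, 9 were higher with library totals, 7 on either TPM scale, and 9 (20 called in all) with near-identical libraries summed. In that last setting 5660 of all 15231 genes tested were called (2783 higher, 2877 lower) and Ly9 was at -0.01. Without Pfas CKO 2 and 4, Slamf1 stood at 5.92. Against control 4 to 6 alone Cd48 was at -0.61, and against control 1 to 3 alone Cd48 was at -0.15 and Cd84 at -0.51. Between the control sets, Slamf7 passed with no filter on low counts (0.093, edgeR adjusted p = 0.0465) and Slamf9 did not in DESeq2 (0.45). Leaving out 1 library gave 0.061 to 0.11 for Slamf7 and 0.33 to 0.58 for Slamf9 there. With a replicate block 9284 genes and 30 related genes were called. Same-numbered libraries correlated between -0.0441 and 0.166, and 3 of 6 correlated best with their own number. These values do not settle whether same-numbered libraries were paired. The cause of these changes was not tested. Depth limits Slamf1 in control, at 46 counts.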
